A study of Mus musculus with 12 samples.

Results

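The Bcl2 family of apoptosis regulators was followed across 4 mouse leukaemia cell lines, as 10 genes chosen by name: the survival genes Bcl2, Bcl2l1 and Mcl1, the pore-forming genes Bax and Bak1, and the BH3-only genes Bcl2l11, Bid, Bad, Pmaip1 and Bbc3. All probe sets that the platform annotation pairs with one of these symbols were taken, which gave 29 of 45037 probe sets and 9 of 18193 genes. The annotation used here names no probe set for Bax, so Bax was not analysed here. The 9 genes had 1 to 6 probe sets each, and none shared a probe set with another gene.

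The lines come from BXH-2 mice, an inbred strain that develops myeloid leukaemia. Ara-C (cytarabine) is a cytidine analogue that blocks DNA synthesis after the cell has phosphorylated it. The submitters describe B117P and B140P as sensitive to it and as the parental lines of a resistant pair, B117H and B140H, whose resistance they call high. Each is 1 line measured on 3 arrays, named A, B and C, so a difference between lines is a difference between those lines alone. The labels attach the same notes on Ara-C exposure and on passage without the drug to parental and resistant samples, and they give no genotype, dose or age. They do not say that the 3 arrays of a line came from separate cultures, so each p-value rests on the spread among these arrays alone, which may be technical.

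Proteins of this family decide whether the outer mitochondrial membrane stays closed. Bcl2, Bcl-xL (from Bcl2l1) and Mcl1 hold it closed by binding their partners, Bax and Bak open it, and BH3-only proteins respond to stress by occupying the survival proteins or by activating Bax and Bak. Once the membrane is open, cytochrome c escapes and caspases are activated. In myeloid cells Mcl1 is a main survival protein, with a transcript and a protein that both turn over quickly, and drugs that damage DNA or stall its synthesis, Ara-C among them, kill through this step.

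The results below turn on Bcl2 and Mcl1, so the DNA before their transcription starts is shown, 250 bases of each, read 5′ to 3′ on the gene's own strand. Both come from RefSeq's mouse assembly GRCm38.p6. The Bcl2 window is chr1:106714291-106714540 on the minus strand, and the Mcl1 window is chr3:95658471-95658720 on the plus strand. Capitals mark matches, on either strand, to 6 common promoter motifs: the GC box GGGCGG, the CCAAT box CCAAT, the cyclic AMP element half-site TGACG, the ETS core CCGGAA, the E-box CACGTG and the TATA box TATAAA.
Bcl2: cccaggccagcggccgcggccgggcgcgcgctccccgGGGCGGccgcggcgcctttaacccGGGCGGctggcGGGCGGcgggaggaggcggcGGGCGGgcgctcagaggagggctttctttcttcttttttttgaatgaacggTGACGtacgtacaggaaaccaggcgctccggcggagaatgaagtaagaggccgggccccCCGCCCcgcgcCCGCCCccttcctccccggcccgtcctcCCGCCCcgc
Mcl1: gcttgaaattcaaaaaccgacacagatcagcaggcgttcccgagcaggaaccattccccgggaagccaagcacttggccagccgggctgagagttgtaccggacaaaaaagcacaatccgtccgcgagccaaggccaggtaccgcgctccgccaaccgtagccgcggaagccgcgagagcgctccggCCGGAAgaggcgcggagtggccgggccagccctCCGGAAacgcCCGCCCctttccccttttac

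The Bcl2 window held 7 GC boxes and 1 cyclic AMP element half-site, which lies 107 to 103 bases before the start. The RefSeq span of Mcl1 begins upstream of the start used here, so this window is one of several that could be drawn. The Mcl1 window held 2 ETS cores, at 63 to 58 and 30 to 25 bases before the start, and 1 GC box. Neither held a CCAAT box, an E-box or a TATA box. Over all 32851 such windows of the RefSeq table, 32.7% held a GC box, 17.8% the half-site and 3952 windows the ETS core. CCAAT was found in 33.8%, TATAAA in 12.4% and CACGTG in 6.02%. G and C made up 74.8% of the Bcl2 window and 64.4% of the Mcl1 window, against a median of 52.4%. The table held windows for 9 of the 10 genes, Pmaip1 being the one without. These matches describe the letters only. No binding was measured in these lines.

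All levels below are RMA intensities on a linear scale, and all changes are log2 differences of value plus 1, fitted with limma and called at a Benjamini-Hochberg adjusted p under 0.05 over all 45037 probe sets. A gene is represented by its brightest probe set unless others are named. Array medians lay between 118 and 132 intensity units, and array B of B140H had the highest of them. The labelled identity was checked against marker genes, and these differed between the lineages. Ptprc, the pan-leukocyte gene, and Spi1, a transcription factor gene of myeloid cells, had log2 levels of 13.12 to 13.73 and 11.19 to 11.52 in the 4 line means, against 6.95 for the median probe set. The granule gene Ctsg lay between 13.15 and 14.14. In the B140 lines some other myeloid markers lay near or below the median. Lyz2 read 6.75 in B140P and 6.97 in B140H, Elane 7.02 and 7.18 and Kit 5.15 and 5.53. Mpo read 9.54 in B140P and 7.13 in B140H. Others lay well above the median, with Cd33 at 11.37 in B140P and 10.39 in B140H, Csf1r at 10.46 and 10.38 and Cebpa at 10.03 and 10.39. The B lymphoid genes Cd79b, at 10.84 and 11.43, and Ebf1, at 9.66 and 9.71, were well above the median there. In the B117 lines Cd79b and Ebf1 were at or below 6.74 and 5.79. Cd79a and Igll1 were also higher in the B140 lines, but not all B lymphoid genes parted the lineages. Ighm read 12.47 in B117P, 13.20 in B117H, 13.07 in B140P and 13.30 in B140H, and Vpreb1 read 9.30, 12.08, 11.59 and 10.19. Blnk was highest in B117H, at 8.22, and Pax5 and Ms4a1 were not called between the lineages. Of the 16 measured genes of a haematopoietic and myeloid list, 16 lay above that median in B117P and in B117H, 12 in B140P and 13 in B140H. Of 9 B lymphoid genes 4, 5, 8 and 7 did so in B117P, B117H, B140P and B140H, of 10 fibroblast genes 2 to 4, of 8 T and NK cell genes 3 in every line, and of 5 erythroid genes 2.

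The first question was whether the family differed between each resistant line and its parental line. In B140H against B140P, Bcl2 rose and Mcl1 fell, while Bak1, the only pore-forming gene measured, and the BH3-only genes were not called. With the array letter as a block in the fit, Bak1 was called there as well (limma, adjusted p = 0.00418). In B117H against B117P no family gene was called. The change of Bcl2 and of Mcl1 differed between the pairs in a direct test. The parental lines themselves differed in 5 of the 9 genes, and Bcl2 was the one that differed most.

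**Figure D1:**
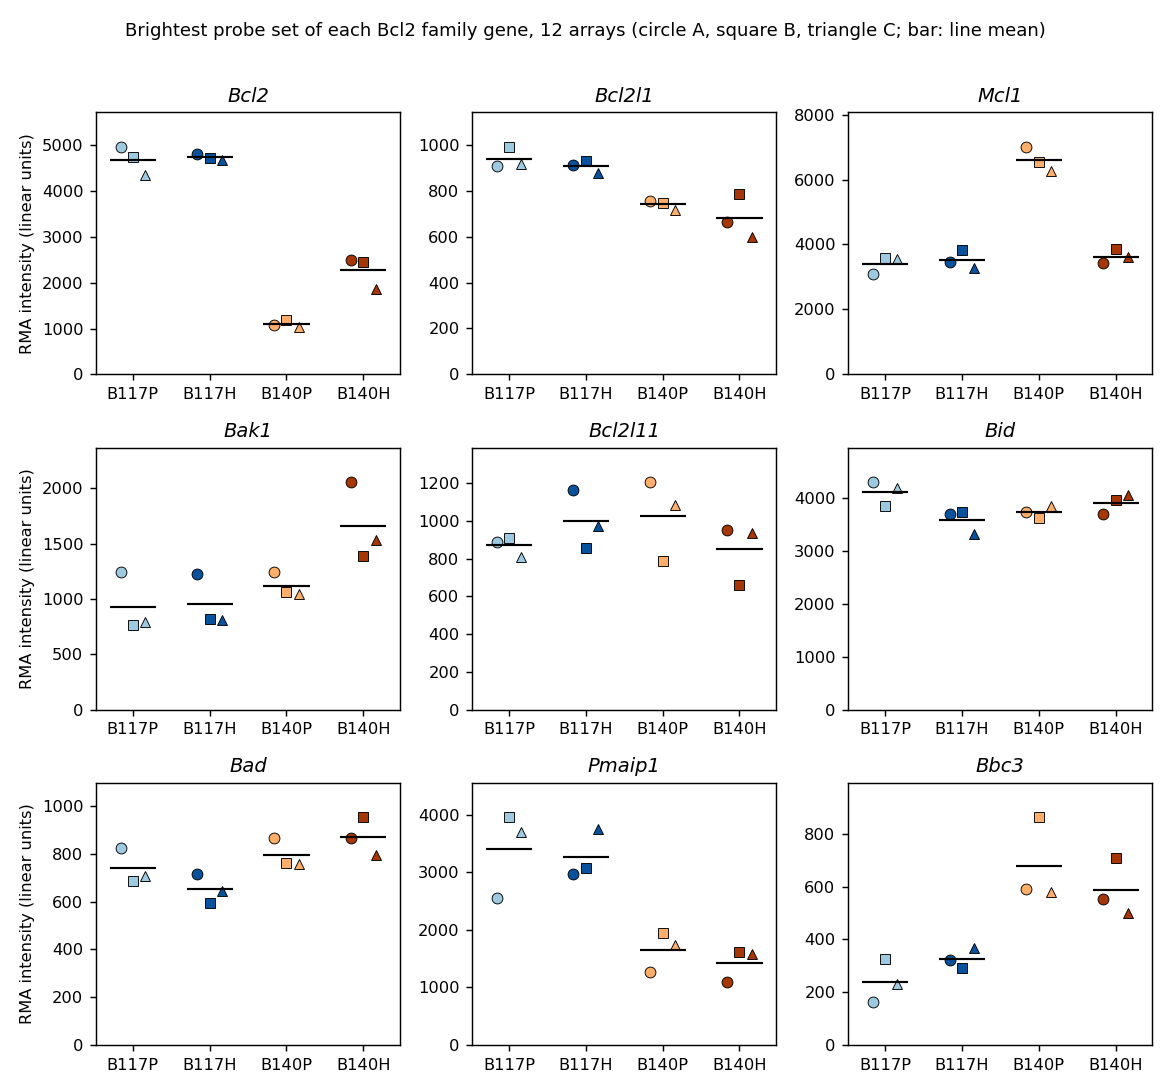
RMA intensity (linear units, axis from 0) of the brightest probe set of each of the 9 measured genes on each of the 12 arrays, with circles, squares and triangles for arrays A, B and C and bars for line means. Bcl2 is lowest in B140P and intermediate in B140H, with 3 B140H arrays between 1867 and 2502, and Mcl1 is high in B140P alone, with 3 arrays between 6264 and 7016.

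Bcl2 encodes the founding survival protein of the family. Its brightest probe set read 1071, 1195 and 1035 intensity units on arrays A, B and C of B140P. On the arrays of B140H it read 2502, 2449 and 1867. Every resistant array thus lay above every parental one. The line means were 1100 ± 84.0 (SD, n = 3) and 2272 ± 352. The rise was 1.04 on the log2 scale (SE 0.12, 95% interval 0.78 to 1.29, adjusted p = 0.000193), or 2.05-fold.

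In the other lineage Bcl2 stood at the same high level in the parental and in the resistant line. The arrays of B117P read 4975, 4739 and 4361 intensity units. Those of B117H read 4822, 4719 and 4691, inside the parental range. The change was 0.018 (95% interval -0.23 to 0.27, adjusted p = 0.991), so a change of the size seen in B140H lies outside its interval. The order of the line means was B140P, B140H, B117P and B117H from low to high, and B117P and B117H are the neighbours in it that did not differ beyond their spread.

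The other Bcl2 probe sets moved alike, with less precision in the dim ones. All 5 had a positive change in B140H, from 0.64 to 1.18, and 3 of 5 were called. The second brightest read 385, 478 and 476 intensity units in B140P and 939, 1079 and 939 in B140H, a 2.21-fold rise (adjusted p = 0.000143). The third read 287, 279 and 311 in B140P and 504, 437 and 425 in B140H, a 1.55-fold rise (adjusted p = 0.031).

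The dimmest pair of Bcl2 probe sets passed no test in B140H, with changes of 1.09 and 1.18 (adjusted p = 0.309 and 0.233). Their arrays scattered. The dimmer of them read 315, 79.5 and 281 intensity units on arrays A, B and C of B140H, so array B fell among the parental values of 85.6, 61.6 and 112. Array B was also low in B117H, at 236 against 519 and 676.

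Mcl1 encodes the short-lived survival protein on which myeloid cells lean. Its brightest probe set read 7016, 6536 and 6264 intensity units in B140P. In B140H it read 3429, 3853 and 3601. The groups did not overlap. The means were 6605 ± 381 (SD, n = 3) and 3628 ± 213, a fall of 0.86 on the log2 scale (SE 0.10, 95% interval -1.08 to -0.65, adjusted p = 0.000225) or 1.82-fold.

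In B140H the Mcl1 reading lay close to that of the B117 lines. B117P read 3078, 3578 and 3558 intensity units, and B117H read 3461, 3823 and 3274. B140H and B117H differed by 0.045 (95% interval -0.17 to 0.26, adjusted p = 0.811), and B117H and B117P by 0.048 (95% interval -0.17 to 0.26, adjusted p = 0.956). B140P was therefore the one line that stood apart, and the 3 others, in the order B117P, B117H and B140H from low to high, each differed from the neighbour by less than the spread. Across the 6 probe sets B140H minus B117H ran from -0.25 to 0.28, none called.

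All 6 Mcl1 probe sets fell in B140H, by 0.86 to 1.09 on the log2 scale, with adjusted p-values of 0.000138 to 0.00269, and in each the arrays of the lines did not overlap. In B117H the 6 changes ran from -0.10 to 0.12, none called, with adjusted p-values of 0.86 or more. Of the 6, 3 have names ending in _x_at, which marks probes that can also bind other transcripts. These fell by 0.87 to 1.08 and the other 3 by 0.86 to 1.09.

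**Figure D2:**
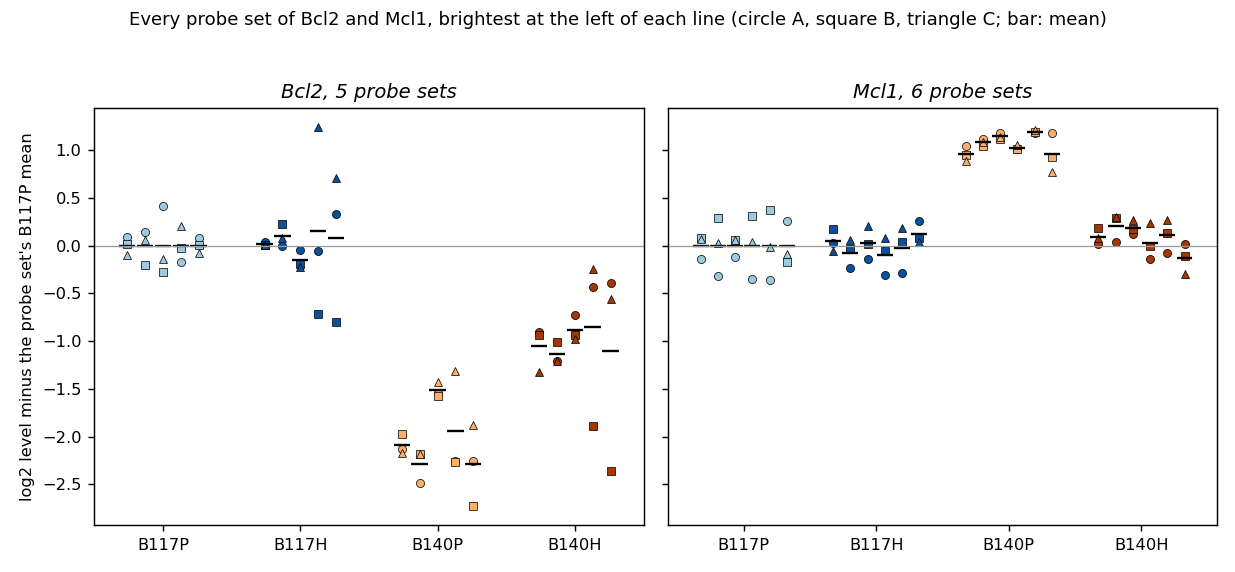
Log2 level of every Bcl2 (left, 5 probe sets) and Mcl1 (right, 6 probe sets) probe set on each array, relative to that probe set's mean in B117P, with the brightest probe set at the left of each line, circles, squares and triangles for arrays A, B and C and bars for means. All 6 Mcl1 probe sets are raised in B140P alone, and the 5 Bcl2 probe sets sit lowest in B140P, with wide scatter in its dimmest pair of probe sets.

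Set against the whole array, 2 of 9 family genes were called in B140H against B140P, where 6.56% of all genes were, and 9 of 29 probe sets, where 4.65% of all probe sets were. The 9 probe sets belong to Bcl2 and Mcl1 alone, and probe sets of a gene read the same transcript. All 9 family genes had a mean level above the median probe set, and calls were more frequent among such genes. In a fit to probe sets above the median level, 1403 of 11330 genes were called in B140H and 1924 in B117H. The family calls in that fit were the same 2 and 0. The median change of the 9 genes was -0.12, against 0.053 over all genes. In B117H limma called 0 of 9 family genes, against 9.41% of all genes, and 1, Bid, had an unadjusted p under 0.05. It called 0 of 29 probe sets, against 6.95%, and 2 had an unadjusted p under 0.05. The median change there was 0.018, and -0.0052 over all genes.

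The change in B140H minus the change in B117H was tested directly. It was 1.02 for Bcl2 (SE 0.16, adjusted p = 0.00195) and -0.91 for Mcl1 (SE 0.14, adjusted p = 0.00141), the 2 of 9 genes called, against 10.4% of all genes. In the fit to probe sets above the median level, this difference was called for 2199 of 11330 genes. The Bcl2 difference was no longer called without all A arrays (adjusted p = 0.0595) or without all B arrays (adjusted p = 0.0582). By probe sets it was called for 10 of 29, against 7.58% of all, namely 3 of Bcl2, 6 of Mcl1 and 1 of Bad.

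Markers of cell identity moved in the same comparison. Of the 16 haematopoietic and myeloid genes limma called 0 upward and 2 downward in B140H, Mpo with a change of -2.41 and Cd33 with -0.97, and their summed intensity ran from 38426 to 41398 in B140P and from 32723 to 34659 in B140H. Of 9 B lymphoid genes limma called 0 upward and 2 downward, Igll1 and Vpreb1, against 6.56% of all genes. Their sums were 13596 to 19101 in B140P and 15258 to 17216 in B140H over all 9 genes. The arrays of Igll1 overlapped. Cd79a and Cd79b changed by 0.87 and 0.59, with arrays apart, and were not called (limma, adjusted p = 0.0518 and 0.146). Among 10 fibroblast genes 1 fell, and 0 of 8 T and NK cell genes and 0 of 5 erythroid genes were called. The part of cell identity in the changes of Bcl2 and Mcl1 was not tested, and in bulk RNA a shift in the kinds of cells cannot be told apart from a shift in RNA per cell.

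Bcl2l1 makes Bcl-xL, the third survival protein measured. Its brightest probe set read 907, 994 and 918 intensity units in B117P and 915, 929 and 878 in B117H. In the other lineage it read 757, 749 and 718 in B140P and 666, 785 and 601 in B140H. Resistant and parental arrays overlapped in both pairs. The change was -0.050 in B117H (95% interval -0.27 to 0.17, adjusted p = 0.956) and -0.12 in B140H (95% interval -0.34 to 0.095, adjusted p = 0.66). The other 3 probe sets of the gene read 45.4 to 123 intensity units on all arrays, below the array medians, and none was called in any comparison.

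Bak1 encodes the pore former that sits in the mitochondrial membrane. It read 1239, 1059 and 1044 intensity units on arrays A, B and C of B140P and 2057, 1391 and 1533 on those of B140H. All B140H arrays were higher, yet the change of 0.56 (SE 0.21, 95% interval 0.10 to 1.02) was not called (adjusted p = 0.208). With the replicate letter as a block, which pairs the arrays of B140P and B140H, the same change was called (SE 0.10, adjusted p = 0.00418), and so was its difference from the change in B117H of 0.51 (adjusted p = 0.0332).

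In B117P Bak1 read 1241, 760.2 and 792 intensity units, and in B117H 1227, 821 and 814. Array A was the highest of its line in all 4 lines, which is the spread that the block removes. The change in B117H was 0.045 (95% interval -0.41 to 0.50, adjusted p = 0.987). The second Bak1 probe set, which ends in _s_at and can bind related transcripts, changed by 0.40 in B140H (adjusted p = 0.808).

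Among the BH3-only genes, none passed the test within either pair. Bcl2l11 makes Bim, which binds every survival protein of the family. It read 1207, 786 and 1086 intensity units in B140P and 954, 661 and 935 in B140H, overlapping ranges, with a change of -0.27 (95% interval -0.65 to 0.12, adjusted p = 0.566). In B117P it read 889.8, 912 and 810.4 and in B117H 1166, 857 and 975, a change of 0.19 (adjusted p = 0.807). The signs were opposite, but the difference of -0.46 between the pairs was not called either (adjusted p = 0.398). The 5 Bcl2l11 probe sets changed by -0.27 to -0.10 in B140H and by -0.29 to 0.26 in B117H.

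Bid links death receptors to the mitochondrion once caspase 8 has cut it. It read 3737, 3621 and 3839 intensity units in B140P and 3695, 3964 and 4060.5 in B140H, overlapping ranges, with a change of 0.065 (95% interval -0.13 to 0.26, adjusted p = 0.813). In B117P it read 4303, 3847 and 4186 and in B117H 3704, 3741 and 3323. Here the arrays did not overlap, although the change of -0.20 was not called (95% interval -0.39 to -0.0050, adjusted p = 0.296). Arrays of the pair were apart in 26.2% of all genes, and Bid was the 1 of 9 family genes with this pattern. In B140H against B140P it was seen for Bcl2, Mcl1 and Bak1, or 3 of 9, against 23.7% of all genes. The third Bid probe set, ending in _x_at, was lower on all B140H arrays, at 291 to 444 against 514 to 523, with a change of -0.50 that was not called (adjusted p = 0.0873).

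Bad is held inactive by 14-3-3 proteins while survival kinases phosphorylate it. It read 867, 763 and 757 intensity units in B140P and 865, 953 and 795 in B140H, and the change of 0.13 was not called (adjusted p = 0.684). It read 823, 687 and 709 in B117P and 717, 596 and 644 in B117H, a change of -0.18 (adjusted p = 0.551). The second Bad probe set was apart in both pairs. It read 699, 640.1 and 660.4 in B140P and 811, 896 and 840 in B140H (change 0.35, adjusted p = 0.0923), and its changes differed between the pairs by 0.56 (adjusted p = 0.0357), whereas the brightest probe set gave 0.31 (adjusted p = 0.348).

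Pmaip1 makes Noxa, which binds Mcl1 and speeds its breakdown, and Bbc3 makes Puma, which binds all survival proteins, and both are known targets of p53. Pmaip1 read 1262, 1939.6 and 1741 intensity units in B140P and 1091, 1620.2 and 1583 in B140H (change -0.20, 95% interval -0.65 to 0.25, adjusted p = 0.74). In B117H, at 2966, 3082 and 3755, it overlapped B117P, at 2558, 3959 and 3703 (change -0.043, adjusted p = 0.987). Array A was the lowest of its line in all 4 lines.

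Bbc3 read 589, 862 and 581 intensity units in B140P and 553, 708 and 499.5 in B140H (change -0.20, adjusted p = 0.777). In B117P it read 162, 327 and 232 and in B117H 320, 291 and 366. Array B of B117P reached into the range of B117H, and the change of 0.49 had a wide interval, -0.0082 to 0.99 (adjusted p = 0.329). Each of these genes has 1 probe set, so no second reading of it was at hand.

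**Figure D3:**
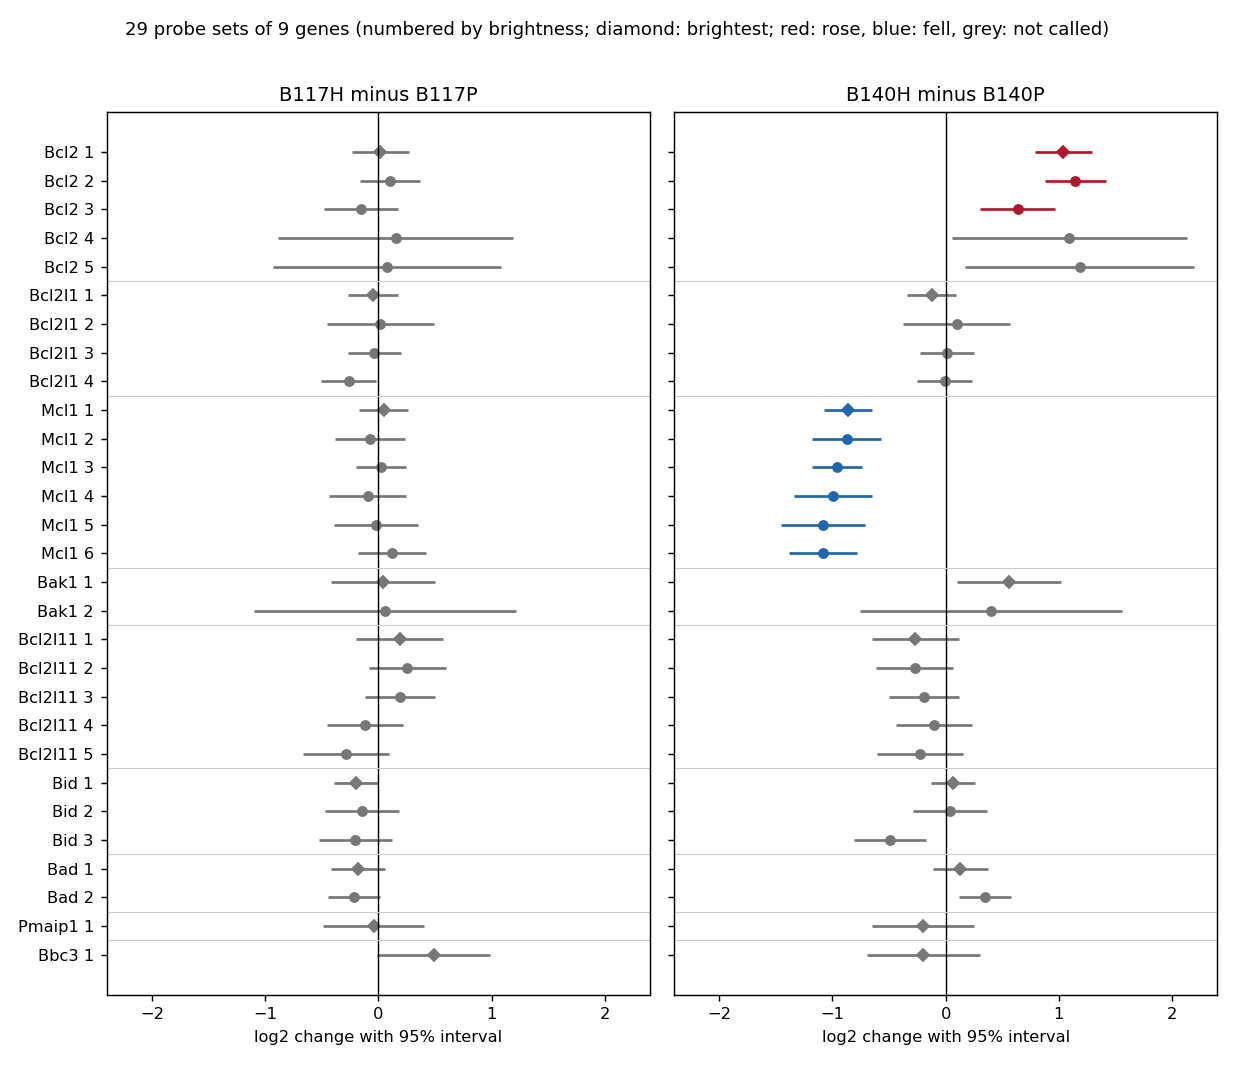
Log2 change with its 95% interval for each of the 29 probe sets, numbered within a gene from the brightest, in B117H minus B117P (left) and B140H minus B140P (right); diamonds mark the brightest probe set, red and blue those called upward and downward and grey those not called. At the left 0 of 29 are coloured, and at the right 3 of Bcl2 are red and 6 of Mcl1 are blue.

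The parental lines were compared to see how the family differed between the lineages. B140P had less Bcl2, Pmaip1 and Bcl2l1 signal than B117P and more Mcl1 and Bbc3 signal. These were 5 of 9 genes, against 23.8% of all genes, and 15 of 29 probe sets, against 18.0% of all. In the fit to probe sets above the median level, 4384 of 11330 genes were called, and the same 5 family genes.

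Bcl2 was 4.26-fold lower in B140P than in B117P, a difference of -2.09 on the log2 scale (SE 0.12, adjusted p = 2.87e-08), and its 5 probe sets ranged from -2.29 to -1.52, all called. Mcl1 was higher in B140P by 0.96 (SE 0.10, adjusted p = 1.16e-05), or 1.94-fold, and by 0.96 to 1.19 across its 6 probe sets, all called. So the lineage with less Bcl2 had more Mcl1, and no array of one parental line reached into the other for either gene. Arrays of B140P and B117P were apart in this way in 38.6% of all genes and in 6 of the measured family genes.

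Pmaip1 was lower in B140P, with a mean of 1648 ± 348 intensity units (SD, n = 3) against 3407 ± 746, a difference of -1.05 (SE 0.21, adjusted p = 0.00255). Bbc3 was higher, with 677 ± 160.3 against 240.0 ± 82.6, a difference of 1.53 (SE 0.23, adjusted p = 0.000318), or 2.88-fold. Both p53 targets thus differed between lineages, in opposite directions.

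Bcl2l1 was lower in B140P, with a difference of -0.34 (SE 0.10, adjusted p = 0.0325). This call was not kept when array B140P A (adjusted p = 0.0687), B140P B (0.0819), B140P C (0.114), B117P B (0.12) or B117P C (0.068) was dropped. It also ended when a whole letter was dropped (0.121 to 0.184) and when the gene's probe sets were averaged (-0.13, adjusted p = 0.512). Bak1, Bcl2l11, Bid and Bad were not called, with differences of 0.29, 0.22, -0.14 and 0.11 between the parental lines. Without all A arrays the Bak1 difference was 0.44 and was called (adjusted p = 0.0299). One dimmer Bcl2l11 probe set was called, at 0.52 (adjusted p = 0.0344).

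The resistant lines were compared in the same way. Here 6 of 9 genes were called, against 27.0% of all genes, and 9 of 29 probe sets, against 20.7%. In the fit to probe sets above the median level, 4875 of 11330 genes were called, and the same 6 family genes. Mcl1 was no longer among the called family genes. The Bcl2 difference was -1.07 (SE 0.12, adjusted p = 1.51e-05), while it was -2.09 between the parental lines. The 5 Bcl2 probe sets ranged from -1.24 to -0.73 between the resistant lines, and limma called 3 of them (adjusted p up to 0.18 over the 5). Pmaip1 differed by -1.20 (SE 0.21, adjusted p = 0.000785) and Bcl2l1 by -0.42 (SE 0.10, adjusted p = 0.00941), both lower in B140H.

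Bbc3, Bak1 and Bad were higher in B140H than in B117H, by 0.84 (SE 0.23, adjusted p = 0.0191), 0.81 (SE 0.21, adjusted p = 0.0147) and 0.42 (SE 0.11, adjusted p = 0.0164). Each of these calls depended on single arrays. Dropping B140H B (adjusted p = 0.0837), B117H A (0.0536) or B117H B (0.0744) ended that of Bbc3. Dropping B140H A (0.0661), B117H B (0.0653) or B117H C (0.0655) ended that of Bak1, and so did averaging its probe sets (0.151). Dropping B140H B (0.0568), B117H B (0.0785) or B117H C (0.0513) ended that of Bad. All 3 also ended without all B or all C arrays (0.0551 to 0.244). With the array letter as a block all 3 calls were kept. The second Bad probe set was called as well, at 0.66 (limma, adjusted p = 0.000453), and the second Bak1 probe set, at 0.64, was not (adjusted p = 0.474). The Bcl2l1 call ended when its probe sets were averaged (-0.058, adjusted p = 0.745), when the fit held only the lines compared (0.054) and without all A or all C arrays (0.108 and 0.134).

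Markers of cell identity also differed between the lineages. Of 9 B lymphoid genes, 6 were higher and 0 lower in B140P than in B117P, and of 16 haematopoietic and myeloid genes 2 were higher and 12 lower. Over all genes 23.8% were called between these lines. In B140H against B117H the B lymphoid genes were mixed, with 4 higher and 2, Vpreb1 and Blnk, lower. Of the myeloid genes 1 was higher and 11 were lower there, against 27.0% of all genes called. Summed B lymphoid intensity was 6289 to 7791 in B117P, 13131 to 17352 in B117H, 13596 to 19101 in B140P and 15258 to 17216 in B140H. Summed myeloid intensity was 79932 to 94520 in B117P and 65198 to 68363 in B117H, where 0 of the myeloid genes rose and 6 fell. Of the B lymphoid genes 3 rose and 1 fell in B117H against B117P, where 9.41% of all genes were called. The part of cell identity in the family differences between lineages was not tested.

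The rest of the machinery was described from 3 lists of genes known from textbooks, chosen with earlier results of these data known. Of 14 other measured Bcl2 family genes, 1 was called in B117H, where Bcl2l14 fell by 0.82 (adjusted p = 0.00459), and limma called 0 in B140H, where 2 had an unadjusted p under 0.05. Their median changes were -0.019 and 0.057, against -0.0052 and 0.053 over all genes. The Bcl2l14 call ended without all A arrays (adjusted p = 0.0869). Bcl2l14 changed by 1.12 more in B140H than in B117H (adjusted p = 0.00587; 0.0797 without all A arrays and 0.0534 without all B arrays).

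Between the parental lines 3 of these 14 genes were higher and 1 was lower in B140P, where 23.8% of all genes were called. Bmf, a BH3-only gene whose product is tied to the cytoskeleton, was higher by 1.26 (adjusted p = 0.00305), but its call rests on a probe set ending in _s_at and was lost when such probe sets were left out (0.041, adjusted p = 0.929). It was also lost without all A arrays (0.0661). Bcl2l14 was lower, at -1.04 (adjusted p = 0.000229), and Bcl2l12 higher by 0.50 (adjusted p = 0.00239, or 0.0642 without all B arrays). Bcl2l15 was higher by 0.48 (adjusted p = 0.025), a call lost in 7 of 24 settings. Among these were the settings that dropped B117P B, B117P C, B140P A or B140P B (adjusted p = 0.107, 0.0534, 0.0789 and 0.082). The log2 level of Bcl2l15 was 5.77 in B117P and 6.25 in B140P, both below the 6.95 of the median probe set. Between the resistant lines 3 were higher in B140H and 0 lower, where 27.0% of all genes were called, with Bmf at 1.46 (0.31, adjusted p = 0.137, without probe sets of that kind), Bcl2l12 at 1.10 and Bnip1 at 0.37. The Bnip1 call was lost in 9 of 25 settings, among them those that dropped B117H A, B117H B, B117H C or B140H A (adjusted p = 0.094, 0.0595, 0.0946 and 0.118). Bcl2l2, the gene of the survival protein Bcl-w, had a difference of -0.0011 in B117H and -0.26 in B140H and was not called (adjusted p = 0.999 and 0.451).

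Of 20 genes that act after the mitochondrion, limma called 0 in B117H, where 4 had an unadjusted p under 0.05, and 3 in B140H, 1 upward and 2 downward, against 9.41% and 6.56% of all genes. Casp6, an executioner caspase gene, fell in B140H by 0.86 (adjusted p = 0.00136), a call lost without all B arrays (adjusted p = 0.0525), and the mean of its probe sets gave -0.45 (adjusted p = 0.0201). Its line means on the log2 scale were 8.78 in B117P, 8.65 in B117H, 9.65 in B140P and 8.79 in B140H, so that, as with Mcl1, B140P was the line that stood apart. Birc3, a gene of the inhibitor of apoptosis family, fell by 0.49 (adjusted p = 0.0426), and Aifm1, which encodes a mitochondrial flavoprotein, rose by 0.32 (adjusted p = 0.047). The Birc3 call was lost in 15 of 25 settings, among them the removal of any 1 array of B140P or B140H, of B117P C or of B117H B (adjusted p up to 0.174), and the Aifm1 call in 19 of 24, among them the removal of any 1 of the 12 arrays (adjusted p up to 0.192). Without probe sets ending in _s_at, _x_at or _a_at, Birc3 gave -0.037 (adjusted p = 0.916). The median change of the list was 0.093 in B117H and -0.0048 in B140H.

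Between the parental lines 6 of these 20 genes were higher in B140P and 2 lower, against 23.8% of all genes called. The highest were Casp6 by 0.88, Htra2, a mitochondrial protease gene, by 0.82, Birc2 by 0.76 and Endog, a mitochondrial nuclease gene, by 0.71, and the highest of their adjusted p-values was 0.000886. Between the resistant lines 3 were higher in B140H and 3 lower, a share near the 27.0% of all genes, with Htra2 higher by 1.35 (adjusted p = 2.4e-06), Endog by 0.93 and Aifm1 by 0.49, and Casp8, the caspase that cuts Bid, lower, at -0.47 (adjusted p = 0.00752, or 0.105 without all B and 0.0679 without all C arrays). Htra2 was read by a probe set ending in _s_at and Aifm1 by one ending in _a_at. The setting without such probe sets had no value for either gene.

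Of 30 measured genes known to act on the members, 1 rose and 2 fell in B117H, and limma called 0 in B140H, where 6 had an unadjusted p under 0.05. The shares over all genes were 9.41% and 6.56%. Btrc, a ubiquitin ligase subunit whose targets include Mcl1, fell in B117H by 0.95 (adjusted p = 0.000288) in a line where Mcl1 was not called. The mean of the Btrc probe sets gave -0.44 (adjusted p = 0.000936) and the setting without probe sets ending in _s_at, _x_at or _a_at -0.55 (adjusted p = 0.0284). Gsk3b, a kinase that marks Mcl1 for breakdown, fell by 0.48 (adjusted p = 0.00805), and Ywhaq, a 14-3-3 gene read by a probe set ending in _s_at, rose by 0.43 (adjusted p = 0.0092). The Gsk3b and Ywhaq calls were lost without all A, all B or all C arrays (adjusted p = 0.062 to 0.133 and 0.0767 to 0.188). The median change of the list was 0.013 in B117H and -0.011 in B140H.

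Between the parental lines 3 of the 30 genes were higher in B140P and 5 lower, against 23.8% of all genes. Bag3, a chaperone partner that binds Bcl2, was lower, at -2.92 (adjusted p = 2.13e-08), and so was Foxo1, whose product can induce Bcl2l11, at -1.16 (adjusted p = 0.00258), while Mapk8, the gene of a stress kinase, was higher by 0.78 (adjusted p = 8.23e-06). Btrc was lower, at -0.84 (adjusted p = 0.000218), a call lost with the mean of its probe sets (0.211) and a direction that turned without probe sets ending in _s_at, _x_at or _a_at, where Btrc gave 0.13 (adjusted p = 0.704). Between the resistant lines 7 were higher and 6 lower in B140H, against 27.0% of all genes and with 5 to 16 called over the alternatives. Bag3 was at -2.98, Foxo1 at -2.17 (-1.44 with the mean of its probe sets) and Atf4, a transcription factor gene of the stress response, at -1.09. Mapk8 was higher by 0.73 (limma, adjusted p = 1.36e-05). In the difference between the pairs 2 of the 14, 2 of the 20 and 3 of the 30 genes were called, against the 10.4% of all genes given above. Besides Bcl2l14 these were Bcl2l12 (0.59, adjusted p = 0.0195), Casp6 (-0.74, 0.0224), Birc3 (-0.66, 0.0405), Btrc (1.13, 0.00122), Gsk3b (0.65, 0.00998) and Ywhaq (-0.69, 0.00418). Each of these 6 calls was lost in some settings. Without all B arrays none of Bcl2l12, Casp6, Birc3, Gsk3b and Ywhaq was called (adjusted p = 0.141, 0.125, 0.178, 0.147 and 0.0695), and without probe sets ending in _s_at, _x_at or _a_at Btrc gave 0.18 (adjusted p = 0.726). Single arrays whose removal ended a call were B140P B and B140P C for Bcl2l12 (0.0524 and 0.0593), B117P C, B117H B, B117H C, B140P A and B140H C for Casp6 (0.05 to 0.0636), and 8 of the 12 arrays for Birc3 (up to 0.107).

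**Figure D4:**
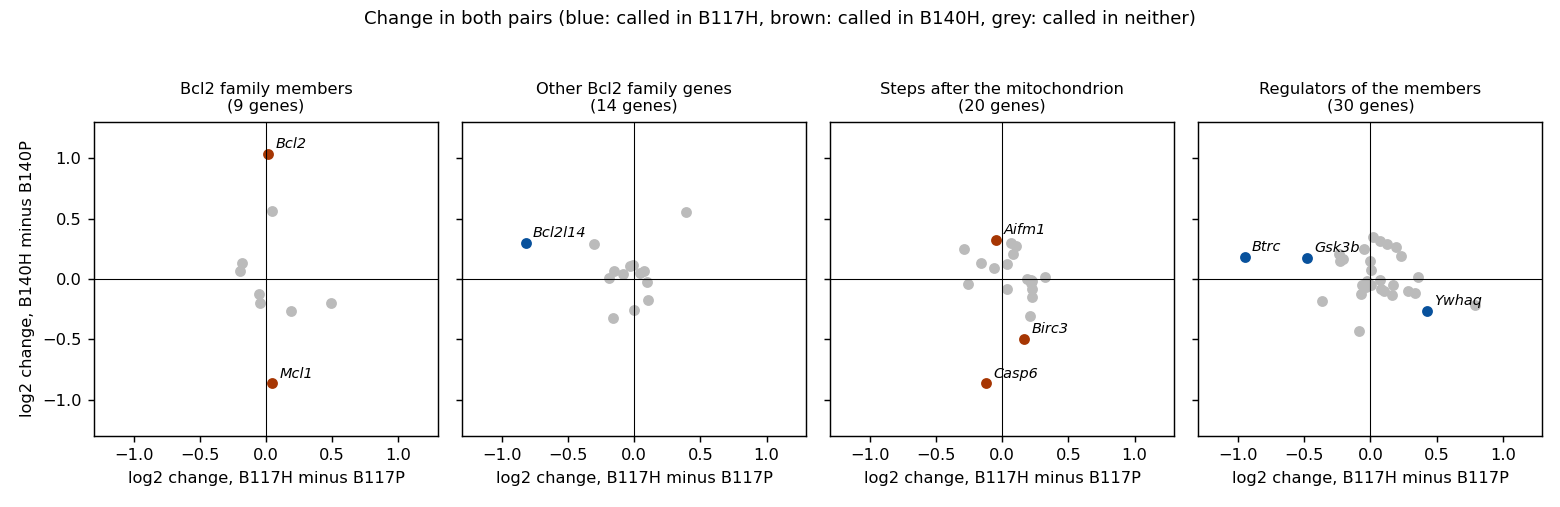
Log2 change in B117H minus B117P (horizontal) against that in B140H minus B140P (vertical) for the 9 family genes and the 14, 20 and 30 measured genes of the 3 lists, each point a gene, with called genes coloured and named. Bcl2 and Mcl1 lie near the vertical line at 0, far above and below 0, with Casp6 near Mcl1 in height, while Btrc and Bcl2l14 lie to the left.

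Bcl2 had the largest moderated F of the 9 genes over the 4 lines, and the genes whose log2 levels followed it most closely over the 12 arrays were sought among 10789 other genes above the median level. They were Enkd1 with a Pearson r of 0.994, Itga1, the gene of an integrin subunit, with 0.990, Dhdds, which acts in dolichol synthesis, with 0.986, Chchd7 with 0.984 and Cops9, a subunit gene of the COP9 signalosome, with 0.982. The 12 points share 4 lines, so these values reflect mainly a like order of the line means. Enkd1 had log2 means of 10.41 in B117P, 10.40 in B117H, 9.14 in B140P and 9.70 in B140H, and Dhdds of 9.60, 9.48, 8.69 and 9.13.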

How the data were processed

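Total RNA of 12 samples (4 lines, 3 arrays each) was hybridised to 1-colour arrays, 1 array per sample. The authors deposited intensity values, 1 per probe set and array. RMA is the method listed in the submitters' processing notes, and its version and settings were not given in the sources used here. The linear scale was read from the values, which ran from 7.65 to 36675. No detection calls came with them, RMA compresses differences among low values, and the number of arrays limits the precision.

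Values were put on the log2 scale with a pseudocount of 1. Of 45101 probe sets 64 array controls were left out. The platform annotation gave 34945 probe sets 1 symbol, 932 several and 9160 none, and each of the 18193 genes was represented by its brightest such probe set with 1 symbol, by mean over all arrays. limma 3.58.1 in R 4.3.3 (lmFit, contrasts.fit, eBayes, two-sided) was fitted to all 12 arrays with 1 coefficient per line, 8 residual and 4.65 prior degrees of freedom, and Benjamini-Hochberg adjustment over all 45037 probe sets. The script was tested on simulated data. Any array letter was left out of the main model. Between B140P and B140H, deviations of same-lettered arrays from their line means correlated at 0.587, 0.360 and 0.560, and all 3 letters also exceeded 0.1 between the parental and between the resistant lines. Between B117P and B117H they gave 0.555, 0.0278 and 0.392, so letter B fell short there.

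Named were all 10 genes, from 3 lists up to 4 called genes with the largest change per comparison, and the 5 genes most like the member with the largest F. Values of Bcl2l2 and of marker genes were added after they had been seen. The members and lists were chosen with earlier results of these data known. Alternatives covered pseudocount, dim probe sets, normalization, the letter as a block, the arrays in the fit, the prior, the choice of probe set, the threshold and left-out arrays. That the lists' genes were also run through them was decided after the data had been seen.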

Additional observations from a re-analysis of the deposited data

Results flagged for a closer look

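The change of Bcl2 in B140H exceeded that in B117H by 1.02 on the log2 scale (limma, adjusted p = 0.00195), with all 3 B140H arrays above all B140P arrays and the B117H arrays inside the range of B117P. The change of Mcl1 in B140H minus that in B117H was -0.91 (limma, adjusted p = 0.00141), with all 3 B140H arrays below all B140P arrays and the B117 arrays overlapping. Both stand here because the test of the difference between the lineages was passed.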

How the results depend on the processing

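Over the alternatives, 1076 of 1116 member changes kept their side of the threshold, 35 lost it and 5 gained it. The sign of a called change turned in 0, and that of an uncalled one in 21. Bcl2 and Mcl1 were called in B140H against B140P in all 25 settings, with changes of 0.94 to 1.17 and of -0.98 to -0.78. Dropping every A array, or every B array, left 1 member called in the difference between the pairs in place of 2. Between the resistant lines the count, 6 in the main analysis, was 3 at adjusted p under 0.01, 3 without all B arrays and 2 without all C arrays, and ran from 3 (without B117H B) to 6 when single arrays were left out. With the replicate block 3 members were called in B140H against B140P, the third being Bak1, and the block ended no member's call. Among all genes, the block raised the count to 2381 in B117H and 1827 in B140H, and in the difference between the pairs it ran from 575 (without all C) to 2739 (block), with 1896 in the main analysis. Leaving out all C arrays lowered the count over all genes to 588 in B117H and 378 in B140H, from 1712 and 1194, and leaving out all B arrays to 810 and 354. Without probe sets ending in _s_at, _x_at or _a_at another probe set stood for some genes, and reversed values were 0.078 for Birc3 in the difference between the pairs and 0.13 for Btrc between the parental lines. Probe sets below the array medians, as 3 of Bcl2l1, limit what small changes can be seen.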

Other observations

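Some members followed the array letter across all 4 lines. The A array gave the highest value of both Bak1 probe sets in every line, and the lowest value of Pmaip1 in every line. The C array gave the lowest value of the brightest Bcl2 probe set and of the dimmest Bcl2l11 probe set in every line, and the highest value of the Bcl2 probe set ending in _x_at. In 6 of 29 member probe sets, or 20.7%, array A was the highest of its line in all lines or the lowest in all, against 15.2% of all 45037 probe sets.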
